A study of Mus musculus with 6 samples.

Results

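The genes described here are 10 iron handling genes of the mouse: the transferrin receptors Tfrc and Tfr2, the iron transporters Slc11a2 and Slc40a1, the ferritin chains Fth1 and Ftl1, and the 4 STEAP family genes Steap1, Steap2, Steap3 and Steap4. They were taken by name from a table of 16440 genes measured by RNA-seq in 6 libraries from FVB N/J mice. Normal MPs, 3 libraries, were bone marrow (BM) cells sorted as Lin-Sca-1-c-Kit+, a gate that holds myeloid progenitors and excludes lineage-positive and Sca-1+ cells. By the paper, this gate includes megakaryocytic-erythroid progenitors besides common myeloid, granulocytic-monocytic, monocytic and granulocytic ones. The c-Kit+ APL progenitors, 3 libraries, were acute promyelocytic leukemia cells of the hMRP8-PML/RARα model, in which the human MRP8 promoter drives the fusion gene in myeloid cells. They had been labeled with GFP by the retroviral vector MigR1 and expanded by transplantation into syngeneic mice. The question was how the leukemic progenitors differ from MPs, which the paper chose as normal counterparts although it calls the true counterparts unclear. Age and sex of the mice are not given. The 3 libraries of a group are called biological replicates, but whether each came from its own mouse, and whether the leukemias shared a donor, is not stated, so p-values measure the spread between these libraries.

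The 10 genes were selected on their measured levels in these 6 libraries, in the same contrast of MPs with APL progenitors, so their differences are given as a description, without a test. A test is given for other genes only. Levels are in scaled fragments, the deposited estimate of sequenced fragments per gene after scaling of each library, or in FPKM where genes are compared with each other, because FPKM also divides by transcript length. Fold changes were fitted on log2(scaled fragments + 1) and are given as APL minus MP with a standard error (SE). The libraries held between 20608715 and 28382785 fragments before scaling. MP library 3 stood furthest from the other libraries of its group: the variance between it and MP libraries 1 and 2 was 13.6 and 13.7 times counting noise at the median gene, against 3.30 between those 2, and 4.11 to 6.91 within the APL group. Of the genes used to check the sort, Kit was between 10442 and 10970 scaled fragments in the MP and between 5780 and 6033 in the APL libraries, Ly6a (Sca-1) did not pass 48.8 in any library, and the T cell gene Cd3e did not pass 1.23. Itgam (CD11b), a myeloid lineage marker, was present in both groups, between 2036 and 3305 scaled fragments in the MP and between 5050 and 5441 in the APL libraries, and Ptprc (CD45) and Fcgr3 were also higher in the APL progenitors (log2 fold change 1.00 and 1.89). Cd34 was lower in the APL progenitors by 6.31 on the log2 scale (adjusted p = 5.6e-09 by limma).

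Cells take up most of their iron as transferrin-bound Fe3+. Transferrin receptor 1, the product of Tfrc, carries it into an endosome, where a STEAP metalloreductase reduces it to Fe2+ and the transporter DMT1, the product of Slc11a2, moves it to the cytosol. Iron that is not used for heme or iron-sulphur clusters is stored in ferritin, a shell of heavy (Fth1) and light (Ftl1) chains, or leaves the cell through ferroportin (Slc40a1). In the BM, erythroid precursors are the main consumers of transferrin iron and macrophages recycle iron from old red cells. When iron is scarce, the iron regulatory proteins bind hairpins in mRNA, the iron-responsive elements (IREs). Binding near the 5′ end blocks translation of ferritin and ferroportin, and binding near the 3′ end stabilises the Tfrc mRNA.

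Matches to an IRE pattern in 4 of the genes are shown because IREs place uptake, storage and export under the same regulatory proteins. A further reason is that an mRNA level alone does not give the protein of a gene that carries an IRE. Each line is a window of the GENCODE vM1 transcript, 5′ to 3′, with the loop CAGTGN in capitals. Windows of Fth1 (bases 29 to 58 of the transcript), Ftl1 (77 to 106) and Slc40a1 (101 to 130) lie in the 5′ UTR. The 4 found in Tfrc (3314 to 3343, 3693 to 3722, 3758 to 3787 and 3805 to 3834) lie in the 3′ UTR.
Fth1: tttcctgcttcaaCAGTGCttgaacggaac
Ftl1: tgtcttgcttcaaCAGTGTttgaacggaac
Slc40a1: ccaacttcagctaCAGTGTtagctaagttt
Tfrc a: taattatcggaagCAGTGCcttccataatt
Tfrc b: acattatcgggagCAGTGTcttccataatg
Tfrc c: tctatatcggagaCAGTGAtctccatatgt
Tfrc d: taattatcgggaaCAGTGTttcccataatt
The pattern searched on the transcript strand was a C, 5 bases, CAGTGN and 5 bases that pair with the first 5, with G-U pairs allowed. It was found in a UTR of 156 of 22611 genes (0.69%) and in 4 of the 9 genes of the set that have a coding transcript of that name there, which leaves out Tfr2. A match is a description of letters and not a measurement of binding. All 5 pairs had to match, so the search can miss IREs of another form, and a gene without a match may still carry one.

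All 10 genes passed the filter of at least 1 scaled fragment in at least 3 libraries, but Steap1, Steap2 and Steap4 passed only through the APL libraries. In 5 genes (Tfrc, Tfr2, Slc11a2, Fth1 and Steap3) every APL library was below every MP library, and in the other 5 every APL library was above. Groups failed to overlap in 70.9% of the 14595 genes tested, 39.8% with APL lower and 31.1% with APL higher. Other genes were called at an adjusted p under 0.05 and a fold over 1.5, which 24.4% of all genes tested met as lower and 21.7% as higher. The median log2 fold change was 0.14 over the 10 genes and −0.10 over all genes tested. Since the 10 genes were picked for this difference, nothing is read from the counts.

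**Figure D1:**
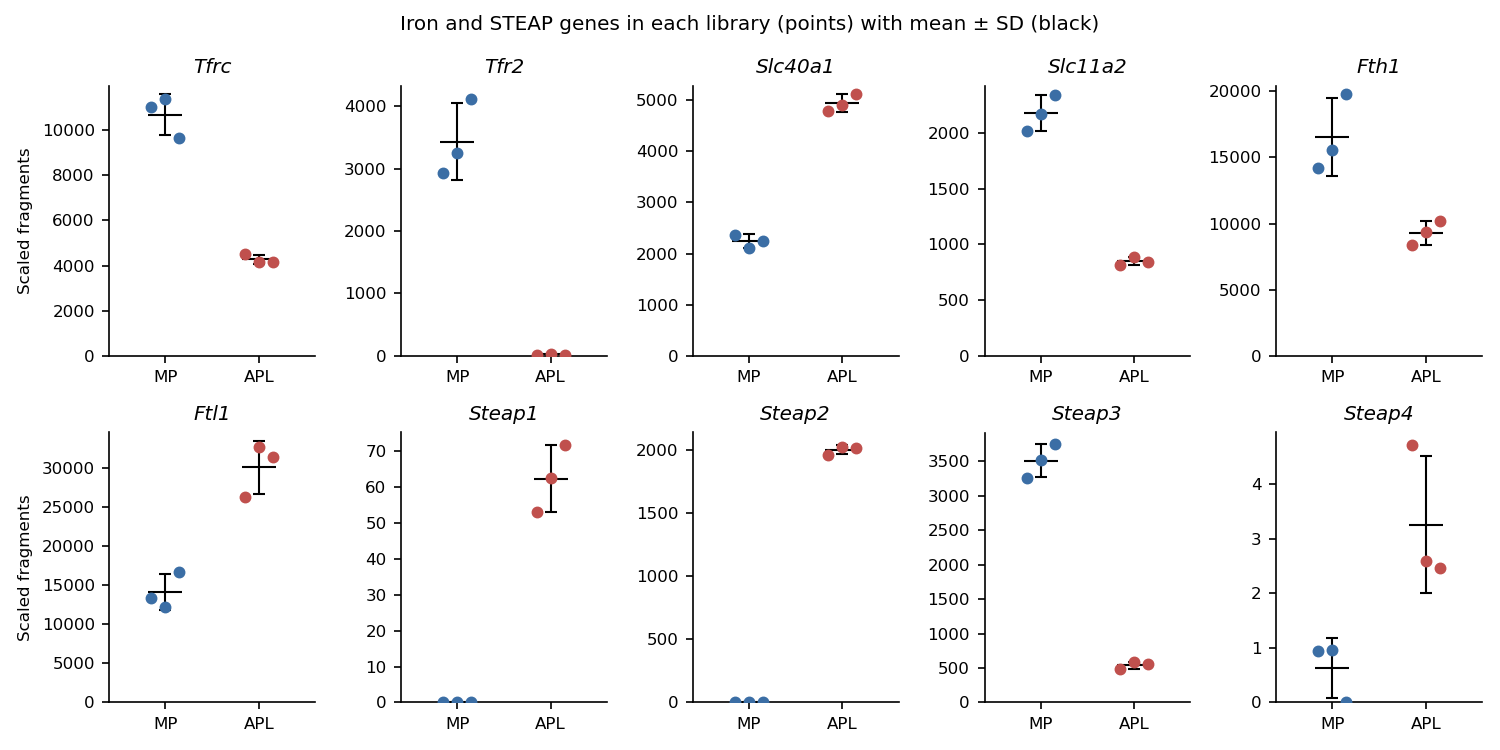
Scaled fragments (vertical axes, linear from 0, one scale per gene) of the 10 genes in the 3 MP (blue) and 3 APL (red) libraries, with the mean ± SD in black. In no panel do the groups overlap: Tfrc, Tfr2, Slc11a2, Fth1 and Steap3 are lower in APL, the other 5 higher, and Steap4 stays under 5 scaled fragments everywhere.

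Both transferrin receptors were lower in the APL progenitors, and to very different degrees. Tfrc (Entrez 22042, chr16:32608896-32632794 on GRCm38) had 10997, 11360 and 9649 scaled fragments in MPs, given in the order of the library numbers here and below, and 4497, 4155 and 4151 in APL progenitors. The lowest MP library thus lay well above the highest APL library, and the group means differed 2.50-fold (log2 fold change −1.32, SE 0.08). Tfr2 (Entrez 50765, chr5:137569851-137587481), which codes for a transferrin sensor that associates with the erythropoietin receptor in erythroid cells and takes part in iron sensing in the liver, had 2924, 3246 and 4117 scaled fragments in MPs against 15.3, 33.8 and 19.7 in APL progenitors. Its mean fell from 3429 ± 617 to 23.0 ± 9.65 (SD, n = 3 each), a 149-fold difference (log2 fold change −7.22, SE 0.26). The APL group was low in every library but not at 0. Per transcript length, the ratio of Tfrc to Tfr2 was between 1.28 and 1.94 in MPs and between 63.1 and 151 in APL progenitors, so that Tfrc supplied nearly all the receptor message that remained. The FPKM sum of both receptors was 125 ± 3.20 in MPs and 30.7 ± 1.82 in APL progenitors.

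Erythroid markers moved with both receptors. Of 17 erythroid markers tested, 16 were called lower in APL progenitors and 0 higher, against 24.4% and 21.7% of all genes, with a median log2 fold change of −7.40. The largest decreases were those of Tspan33 (−8.32), the carbonic anhydrase Car1 (−8.08) and the water channel Aqp1 (−8.03), with adjusted p of 4.4e-08, 8.8e-09 and 2.6e-09 by limma. Slc4a1, the band 3 anion exchanger, was not called, at 23.0 against 5.01 scaled fragments. The FPKM of the list summed to between 2519 and 3146 in the MP libraries and between 18.4 and 30.6 in the APL libraries, where Hba-a2, Hbb-b1 and Trim10 did not pass 3 fragments. The part of these markers in the lower Tfrc, Tfr2, Slc11a2, Steap3 and heme gene levels was not tested. In bulk RNA, fewer cells of a type and less RNA per cell cannot be told apart. The globin genes share near-identical copies, so fragments could be divided between them.

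The importer and the exporter moved in opposite directions. Slc11a2 (Entrez 18174, chr15:100387900-100423055), the endosomal Fe2+ transporter, had 2018, 2168 and 2345 scaled fragments in MPs and 813, 886 and 845 in APL progenitors. Its groups were far apart against a narrow spread, with a 2.57-fold lower mean (log2 fold change −1.36, SE 0.08). The gene lies on chromosome 15, where the median of 563 tested genes was 0.46 and only 14.4% were called lower, so its direction ran against that of the chromosome. Slc40a1 (Entrez 53945, chr1:45908070-45925594), the only known iron exporter of mammalian cells, had 2373, 2105 and 2256 scaled fragments in MPs and 4785, 4916 and 5127 in APL progenitors. All 3 APL libraries had more than the highest MP library by a wide margin, and the mean was 2.20-fold higher (log2 fold change 1.14, SE 0.07). In FPKM, the ratio of Slc40a1 to Tfrc was 0.332, 0.288 and 0.356 in MPs and 1.65, 1.84 and 1.92 in APL progenitors, and that of Slc40a1 to Slc11a2 went from 0.971 ± 0.101 to 5.52 ± 0.145 (SD, n = 3 each). MPs therefore held about equal message for the exporter and for DMT1, whereas every APL library held over 5 times as much of the exporter.

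Macrophages express ferroportin strongly, so their markers are given beside Slc40a1. Of 15 macrophage markers, 5 were called higher in APL progenitors (33.3%), 6 lower (40%) and 4 not called, with a median log2 fold change of −0.90. Among all genes tested, 21.7% were called higher and 24.4% lower. The 6 lower calls became 3 without MP library 2, without MP library 3 or without APL library 2. Emr1 (F4/80, log2 fold change 2.79), Cd68 (2.16), Mrc1 (1.30) and Vcam1 (0.88) were higher, and Axl (−2.69), Csf1r (−1.81) and Cd5l (−1.61) were lower. The FPKM sum was between 26.3 and 32.4 in MPs and between 54.8 and 56.9 in APL progenitors. Cd68 alone gave between 5.44 and 7.62 of it in MPs and between 28.6 and 30.2 in APL progenitors. Csf1r went the other way, from between 11.6 and 13.7 to between 3.28 and 4.05. The sum therefore does not describe the list as a whole. Siglec1, Cd5l, Timd4, Mertk and Vsig4, markers of resident and iron-recycling macrophages, did not pass 3 fragments in any APL library or 10 in any MP library. Vsig4, at 0 in MPs, is 1 of the 5 higher calls, on at most 2 fragments per library. The part of the other macrophage markers in the higher Slc40a1 level was not tested.

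The 2 ferritin chains changed in opposite directions. Fth1 (Entrez 14319, chr19:9980600-9985111), the heavy chain with the ferroxidase activity that loads iron into the shell, had 14221, 15568 and 19816 scaled fragments in MPs and 8351, 9385 and 10163 in APL progenitors. MP library 3 was the highest, and the lowest MP library still exceeded the highest APL library (1.78-fold lower mean, log2 fold change −0.82, SE 0.13). Ftl1 (Entrez 14325, chr7:45457944-45459886), the light chain, which favors mineral formation and long-term storage, had 13383, 12209 and 16680 scaled fragments in MPs and 26203, 32598 and 31328 in APL progenitors. Here the groups were apart in the other direction (2.13-fold higher mean, log2 fold change 1.10, SE 0.14). In FPKM the heavy to light ratio was 1.06, 1.26 and 1.18 in the MP libraries and 0.323, 0.292 and 0.327 in the APL libraries. Normal MPs thus carried slightly more heavy than light chain message and APL progenitors about 3 times more light than heavy. The summed ferritin FPKM changed far less, from 1538 ± 187 to 2011 ± 210, although the groups did not overlap (1416 to 1753 against 1786 to 2201). RefSeq lists 5 copies of these genes as pseudogenes, 2 of the heavy and 3 of the light chain, and 0 of them are in the deposited table, so reads shared with such copies make both levels uncertain.

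**Figure D2:**
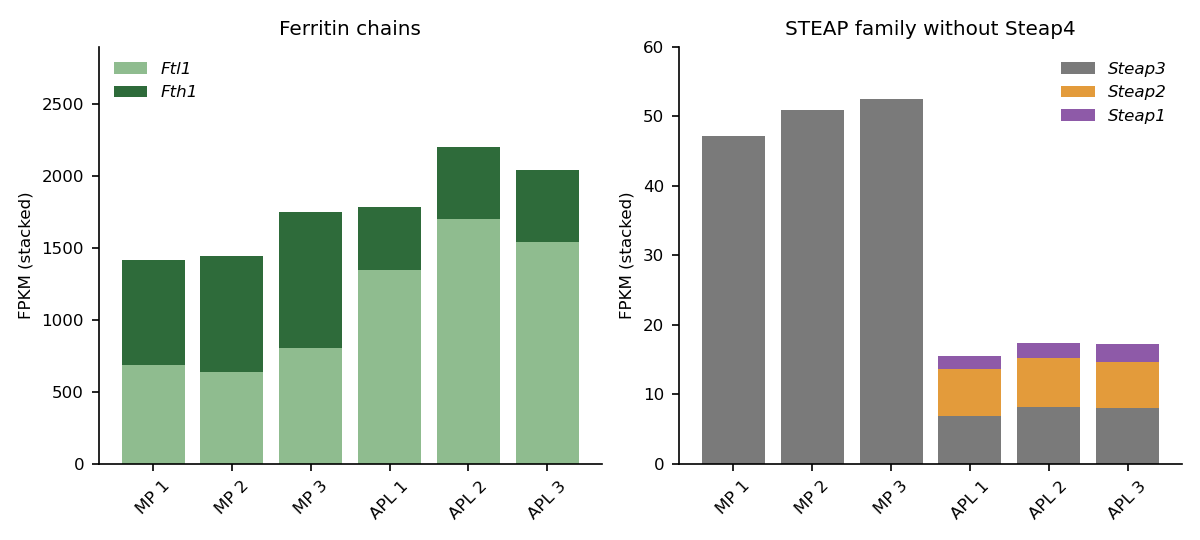
Stacked FPKM (vertical axes, linear from 0) of the ferritin chains (left) and of Steap1, Steap2 and Steap3 (right) in each library. Steap4, under 0.06 FPKM in every library, is not drawn. The ferritin total is 1416 to 1753 FPKM in MPs and 1786 to 2201 in APL, with the light chain making up most of it only in APL; the STEAP total falls from 47.1 to 52.5 in MPs to 15.6 to 17.5 in APL, where Steap2 and Steap1 appear.

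In the STEAP family, Steap3 was lower in the APL progenitors but still expressed, and Steap2 and Steap1, at or near 0 in MPs, were expressed beside it. STEAP2, STEAP3 and STEAP4 reduce Fe3+ and Cu2+, and STEAP3 is the endosomal reductase of erythroid cells. STEAP1 lacks the NADPH-binding domain of the other members. Steap3 (Entrez 68428, chr1:120226416-120271082) had 3261, 3523 and 3746 scaled fragments in MPs and 480, 584 and 554 in APL progenitors. Each APL library was far below each MP library, with a 6.51-fold lower mean (log2 fold change −2.70, SE 0.09). Steap2 (Entrez 74051, chr5:5664831-5694568) had 0, 2 and 1 fragments before scaling in MPs and, in scaled fragments, 1956, 2022 and 2013 in APL progenitors. It was thus close to silent in all MP libraries and even across the APL libraries. In all, 5624 fragments against 3 gave a ratio of 2151 with a 95% interval of 736 to 10433 (exact, counting error only). No MP library passed 3 fragments, so the MP level cannot be told from absence and the size of the ratio is uncertain.

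Steap1 (Entrez 70358, chr5:5736322-5749317) had 0 fragments in all 3 MP libraries and 53.0, 62.4 and 71.6 scaled fragments in APL progenitors. Against a floor of 3 fragments per MP library, the APL mean of 62.3 scaled fragments was at least 21.8-fold higher. Steap4 (Entrez 117167, chr5:7960472-7982213), a reductase known from adipose tissue and inflammation, had 1, 1 and 0 fragments in MPs and 4, 3 and 2 in APL progenitors. Both groups were near the limit of detection, and the ratio of 5.16 had an interval of 1.07 to 49.1. This interval covers counting error of pooled fragments only and is not a test. Steap4 also passed the filter only through the APL libraries. It is the member whose difference is known least well. As a share of the summed STEAP FPKM, Steap3 made up at least 99.9655% in every MP library and between 43.7% and 47.2% in the APL libraries, where Steap2 contributed 40.7% ± 2.47 (SD, n = 3) and Steap1 between 12.4% and 14.8%. The STEAP sum was 50.2 ± 2.77 FPKM in MPs and 16.8 ± 1.01 in APL progenitors, so the total stayed lower with Steap2 and Steap1 included.

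Steap2 and Steap1 are neighbours on chromosome 5, separated by 41.8 kb, while Steap4 lies 2.21 Mb further on. Their promoters are shown because both genes were at or near 0 in MPs and expressed in APL progenitors. Each line gives, from RefSeq on GRCm38.p6, minus strand, the 250 bases before the transcript start that matches the deposited gene end, with each CpG (the letters CG) in capitals. The windows are chr5:5749318-5749567 for Steap1 and chr5:5694569-5694818 for Steap2.
Steap1: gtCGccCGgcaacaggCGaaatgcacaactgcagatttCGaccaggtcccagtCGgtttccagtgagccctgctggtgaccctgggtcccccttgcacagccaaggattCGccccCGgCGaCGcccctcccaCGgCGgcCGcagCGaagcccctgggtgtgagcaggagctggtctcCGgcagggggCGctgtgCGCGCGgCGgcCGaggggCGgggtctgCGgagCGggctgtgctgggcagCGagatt
Steap2: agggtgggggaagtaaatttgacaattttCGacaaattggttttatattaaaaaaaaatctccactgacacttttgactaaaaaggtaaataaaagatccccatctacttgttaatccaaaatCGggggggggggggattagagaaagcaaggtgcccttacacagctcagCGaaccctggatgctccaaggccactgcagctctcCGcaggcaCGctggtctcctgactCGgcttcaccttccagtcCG
The Steap1 window held 24 CpGs, more than most promoters: 10.7% of 32851 such windows held more, and their median was 6. The Steap2 window held 7, which 43.0% of windows exceeded, but its other 2 annotated starts had 10 and 33. No methylation or binding was measured here.

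The genes around Steap2 and Steap1 did not behave alike. Of 5 genes within 500 kb of the pair, all on the side of Steap2, 3 were called higher in APL progenitors and 1 lower, against 21.7% and 24.4% of all genes. On chromosome 5 as a whole the median log2 fold change was −0.20 and 17.9% of 898 genes were called higher. The gene A330021E22Rik, which ends 0.598 kb from Steap2, had 5 fragments in all MP libraries and 294 in the APL libraries. The ratio was 67.5 with an interval of 28.6 to 209. It passed the filter only through the APL libraries, so no p is given for it. Gm8773 had 13 fragments in the MP and 1141 in the APL libraries, a ratio of 101 with an interval of 58.7 to 190 (adjusted p = 3.6e-07 by limma). Both were, like the STEAP pair, nearly silent in MPs. Cldn12, a tight junction claudin, was already expressed in MPs, at 155, 194 and 177 scaled fragments, and reached 897, 825 and 833 in APL progenitors (log2 fold change 2.28, SE 0.11, adjusted p = 3.0e-07). Gtpbp10, a mitochondrial ribosome GTPase that lies between Cldn12 and Gm8773, was not called, at 689 ± 13.7 against 795 ± 53.6 scaled fragments. Cdk14, a cyclin-dependent kinase further away, went the other way, from 130 fragments to 3 (log2 fold change −4.50, SE 0.41). It passed the filter only through the MP libraries, so no p is given for it. Strand use in the counting is not stated, and the RefSeq genes Gm40262, Gm46900 and Gm5475 overlap Steap2, Steap1 and Slc11a2, so reads of overlapping genes cannot be separated. Steap2 is on the minus strand, so A330021E22Rik lies just beyond its 3′ end. Reads that run past that end cannot be told from reads of A330021E22Rik, and their share in its fragments was not tested.

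**Figure D3:**
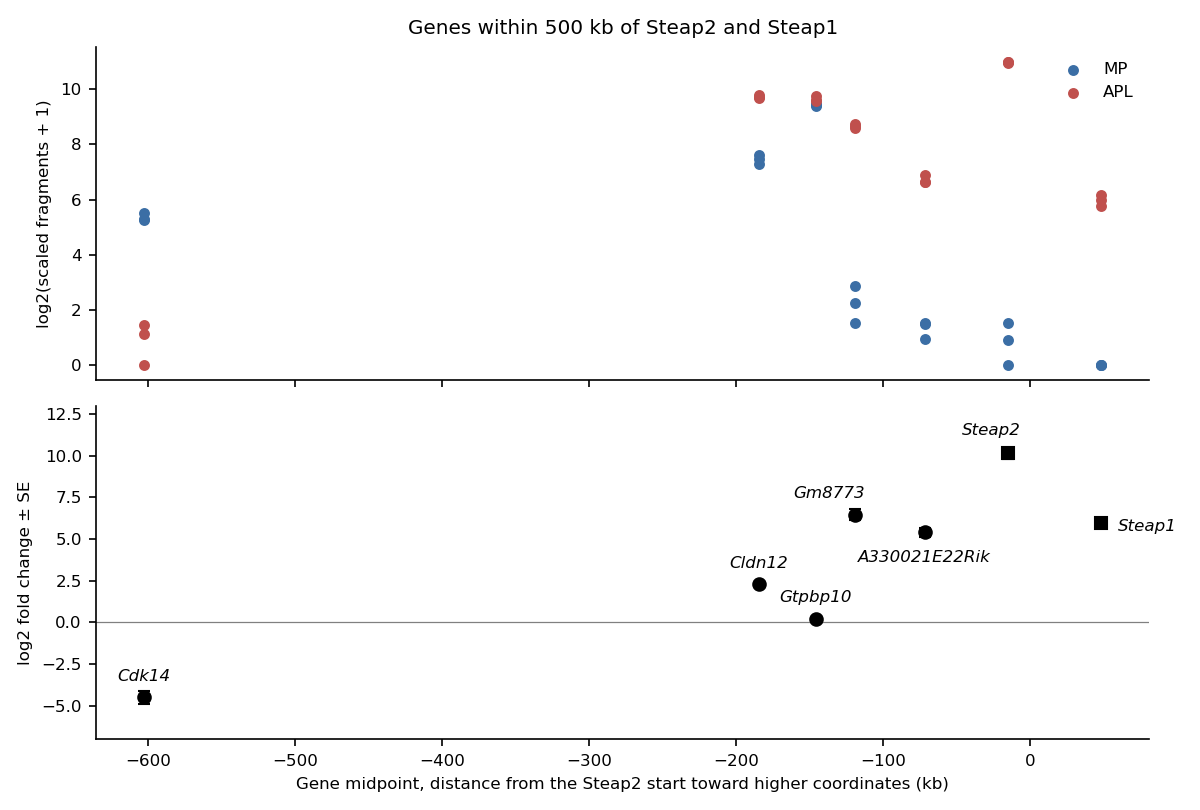
Genes within 500 kb of Steap2 and Steap1, placed by the distance of the gene's midpoint from the Steap2 start (horizontal axis, kb; Cdk14 is long and its near end lies within the window). The top panel shows log2(scaled fragments + 1) of each MP (blue) and APL (red) library and the bottom panel the fitted log2 fold change ± SE, with squares for Steap2 and Steap1: 3 neighbours were called higher, Gtpbp10 sits near 0 and Cdk14 at −4.50.

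The order of levels within the set, by mean FPKM, also changed. In MPs, Fth1 (828) and Ftl1 (710) came first with overlapping libraries, then Tfrc (77.7), then Steap3 (50.2) and Tfr2 (47.8), which overlapped, then Slc11a2 (26.0) and Slc40a1 (25.2), which overlapped as well. Steap4, Steap2 and Steap1 were last, at or near 0, and could not be ordered. In APL progenitors Ftl1 (1532) was followed by Fth1 (479), Slc40a1 (54.6), Tfrc (30.4) and Slc11a2 (9.90), each apart from the next. Steap3 (7.68) and Steap2 (6.83) overlapped there, and Steap1 (2.26), Tfr2 (0.322) and Steap4 (0.038) came last, each below every library of the gene before it. The exporter thus moved from the seventh place to the third, and Tfr2 from the fifth to the ninth. Only 0.335% of all genes in the table had a higher mean FPKM than Ftl1 in APL progenitors.

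The genes nearest in profile, by the root mean square difference of log2 values over the 6 libraries, were Pik3cg for Slc40a1 (0.05), Mink1 for Slc11a2 (0.07), Smap2 for Steap3 (0.10), Cd24a for Tfrc (0.17) and Golm1 for Tfr2 (0.26). For Steap2 the nearest gene, Morc1, was at 0.43. The value is a description over 2 groups of 3 libraries, in which genes with a like level and a like difference lie close.

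The other genes of iron uptake, export and plasma iron were mixed, with 8 of 18 called higher in APL progenitors and 4 lower, and a median log2 fold change of 0.41 (21.7% higher and 24.4% lower among all genes). The largest increase was that of Heph, which codes for hephaestin, a copper ferroxidase that works with ferroportin at the gut epithelium. It had 4, 6 and 4 fragments before scaling in MPs and 2279, 2276 and 2144 scaled fragments in APL progenitors (ratio 516, interval 307 to 944, adjusted p = 5.8e-09). Trf, the gene of transferrin itself, rose from 1140 to 8675 scaled fragments on average (log2 fold change 2.94, SE 0.13, adjusted p = 1.5e-07). Hp, the hemoglobin scavenger haptoglobin, which is also a neutrophil granule protein, rose from 4537 to 61262 (3.76, SE 0.13, adjusted p = 4.2e-08). Hp lies on chromosome 8, where the median gene was higher by 0.48. Timd2, a receptor for heavy chain ferritin, had 3 fragments in all MP libraries and 75 in the APL libraries (ratio 28.7, interval 9.45 to 142). It passed the filter only through the APL libraries, so no p is given for it. Slc22a17, a lipocalin 2 receptor (−4.31), Slc39a14, which carries iron not bound to transferrin (−3.27), and Cd163, a hemoglobin-haptoglobin receptor (−1.66), fell, with adjusted p of 3.1e-05, 3.8e-06 and 2.7e-04.

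Among 19 genes of iron sensing, storage and regulation, 5 were called lower and 5 higher, 26.3% each and near the 24.4% and 21.7% of all genes, and the median was 0.09. The genes of the sensors that read the IREs were not among them. Aco1, iron regulatory protein 1, had a log2 fold change of 0.28 (SE 0.09, adjusted p = 0.019, under the 1.5-fold limit), Ireb2, iron regulatory protein 2, of −0.09 (SE 0.10, adjusted p = 0.46), and Fbxl5, the ligase that degrades it, of 0.09 (SE 0.07, adjusted p = 0.30). Ncoa4, the receptor that delivers ferritin to autophagy, was higher, with 7796, 7252 and 7567 scaled fragments in MPs and 12979, 14123 and 13831 in APL progenitors (0.86, SE 0.07, adjusted p = 1.1e-05). Hfe, the hemochromatosis protein that binds transferrin receptor 1, was also higher (1.02, SE 0.15, adjusted p = 3.4e-04), as were the BMP receptor Bmpr1a (4.52) and the hypoxia factor Epas1 (3.45). The BMP and hepcidin pathway genes Acvr1 (−4.92), Smad6 (−4.22) and Neo1 (−2.25) were lower. Acvr1 and Smad6 passed the filter only through the MP libraries, so a p is given for Neo1 only (adjusted p = 0.0021 by limma). Ftmt, mitochondrial ferritin, was called higher but did not pass 3 fragments in any library.

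Of 22 heme genes, 11 were called lower and 3 higher, against 24.4% and 21.7% of all genes, with a median of −0.64. Of the 9 enzymes that make heme, 7 were lower, 1 higher and 1 not called. Alas1, the form of the first enzyme that all cells use, was the one that rose, from 10930 to 19244 scaled fragments (0.82, SE 0.10, adjusted p = 7.3e-05). Alas2, its erythroid form, went from 45.4 to 4.54 (−3.04, SE 0.30, adjusted p = 2.2e-05). Alad (−2.21), Cpox (−1.86) and Fech, which inserts the iron (−0.78), were lower, with adjusted p of 2.6e-06, 6.4e-08 and 2.5e-05. Ppox (−0.48) was under the fold limit. The mitochondrial iron importers Slc25a37 (−0.42) and Slc25a28 (−0.02) were not called. Biliverdin reductase B (Blvrb, −2.37) and the porphyrin exporter Abcg2 (−2.22) were lower, while the heme transporter Slc48a1 (1.56) and the heme oxygenase Hmox1 (1.40) were higher. Slc48a1 lies on chromosome 15 and Hmox1 on chromosome 8, where the median gene was higher by 0.46 and 0.48.

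Of the iron-sulphur cluster genes, 12 of 26 were called lower and 2 higher (1 with all libraries scaled to the same total), against 24.4% and 21.7% of all genes, with a median of −0.54. Among the lower genes were the assembly factor Iba57 (−1.94, SE 0.15, adjusted p = 5.8e-06) and the cochaperone Hscb (−1.39, SE 0.18, adjusted p = 1.4e-04). The 2 that were higher, Fam96b (0.73) and Ciapin1 (0.68), act in the cytosolic pathway and both lie on chromosome 8. Over the 4 lists together, 32 of 85 genes were called lower, 18 higher and 35 not called, against 46.1% of all genes called in either direction.

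**Figure D4:**
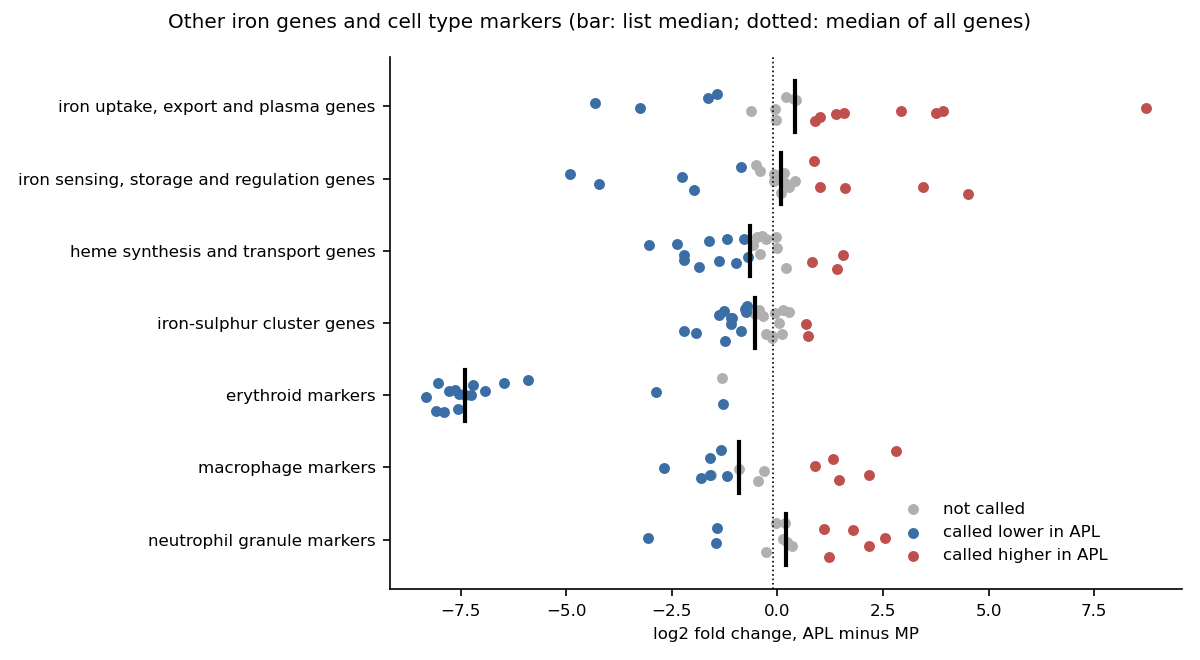
Fitted log2 fold change (horizontal axis, APL minus MP) of each tested gene of 7 lists, colored by its call, with the list median as a bar and the median of all genes (−0.10) as a dotted line. The erythroid markers lie furthest to the left (median −7.40), the heme and iron-sulphur medians at −0.64 and −0.54, and Heph at 8.73 furthest to the right.

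Neutrophil granule genes are given because Hp, Lcn2 and the iron-binding Ltf belong to granules. Of 14, 5 were called higher (35.7%), 3 lower (21.4%) and 6 not called, with a median of 0.20. Among all genes tested, 21.7% were called higher and 24.4% lower. Their FPKM sum was between 20412 and 28197 in MPs and between 72517 and 87125 in APL progenitors. A large part of it came from S100a8, between 7576 and 10527 FPKM in MPs and between 35587 and 47234 in APL progenitors. The sum therefore does not describe the list as a whole. The granule proteases Ctsg (2.55) and Elane (1.78) and the calgranulin S100a8 (2.17) were higher, while the protease Prtn3 (0.12, adjusted p = 0.38) was not called. Ltf, lactoferrin, was lower (−1.42, SE 0.20, adjusted p = 2.4e-04), as were Ngp (−1.46) and Fcnb (−3.06). Lcn2, which binds iron-loaded siderophores, was not called, at 2742 against 2552 scaled fragments. The part of these markers in the higher Trf, Hp and Ftl1 levels was not tested.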

How the data were processed

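Total RNA from 6 sorted samples was made into libraries with a TruSeq RNA kit. The submitters' processing notes name CASAVA 1.8, TopHat2 2.0.6 and mm10, while the paper's methods name STAR, mm9, HTSeq-count and DESeq2. The tool that made the table is not given in the sources used here. The authors deposited FPKM values and a signal in scaled fragments for 16440 genes. Dividing the signal by its smallest step gave whole numbers (tolerance 0.02) for 85.3% to 88.0% of nonzero values per library, too few for a count test, so the values were tested as normalized values. Unscaled totals were 20608715 to 28382785 fragments and scaled totals 21876288 to 25810097. A gene at 3 fragments or fewer cannot be told from absence, and the intervals (95%, exact) cover counting error only. They pool the fragments of the libraries of a group, leave out the spread between libraries and are not a test of the members. Of 16336 genes matched to RefSeq, the deposited locus starts 1 base below the RefSeq gene in 7057 and at the same base in 586, and elsewhere in the rest, so 1 was added to each start.

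Groups were taken from the labels. Genes with at least 1 scaled fragment in at least 3 libraries (14595) were fitted as log2(scaled fragments + 1) with limma 3.58.1 (lmFit, eBayes with a trend) in R 4.3.3, with Benjamini-Hochberg adjustment over all of them. Fold changes on this scale understate those of low genes. Some named genes outside the set passed the filter only through the APL libraries (Timd2, A330021E22Rik, Epas1, Ftmt and Vsig4). Others passed only through the MP libraries (Cdk14, Acvr1, Smad6 and Cd5l). Such genes are counted among the calls, but no p is given for them. On simulated data for this comparison (14478 genes), 199 of 200 changed genes were recovered with 5 false calls. Only those 200 genes differed there, while 46.1% of the genes tested were called in the real libraries. The changed genes were all above a minimum MP level, and their changes were well over the 1.5-fold limit. The same spread was used for every gene and library, although MP library 3 stood apart in the real data. High recovery was therefore built in, and the simulation does not cover low genes or small changes. Recovery and false calls in the real libraries were not tested. The members and lists were chosen with earlier results of these data known. Named are all 10 members, up to 3 genes with the largest called increase and decrease of each list, partner genes of the members fixed by name, the genes within 500 kb of Steap1 and Steap2, and the nearest profile of some members. Some list genes outside this rule (Alad, Cpox, Ppox, Slc4a1, Hba-a2, Hbb-b1, Trim10, Lcn2, Prtn3, Siglec1, Timd4, Mertk, Mrc1, Vcam1 and Vsig4) were named after their values were seen. The values of some other list genes are not reported here. The alternatives were no filter, a minimum of 10, pseudocounts of 10 and 0.5, quantile normalization, scaling to the same total or by the median ratio, FPKM with a pseudocount of 0.1, the library number as a block, and each library left out. IREs were searched in GENCODE vM1 transcripts, an earlier build used for sequence only. Of the members, 8 had RefSeq promoter windows. Protein sequences were not used here. Figures were drawn with matplotlib 3.10.9.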

Additional observations from a re-analysis of the deposited data

How the results depend on the processing

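No member changed direction under any of 15 alternatives (13 for Steap4). The filter settings and the library number as a block could not change a member's fold change. Another pseudocount or a library left out could not reverse the direction, because the groups did not overlap in any member. Fitted log2 fold changes ranged from −1.45 to −1.26 for Tfrc, −7.53 to −6.73 for Tfr2, 1.01 to 1.20 for Slc40a1, −1.49 to −1.29 for Slc11a2, −0.95 to −0.68 for Fth1, 0.97 to 1.23 for Ftl1 and −2.83 to −2.62 for Steap3. The genes near 0 in MPs depended on the pseudocount and unit: Steap2 ranged from 6.07 to 10.71, Steap1 from 2.85 to 6.96 and Steap4 from 0.32 to 2.09, under the 1.5-fold limit with a pseudocount of 10 and not tested with a minimum of 10 or with FPKM. Of 240 values for the counts of called genes, 234 stayed within 1.5 times the reported count. The exceptions were the iron-sulphur genes called higher (1 with the same total) and the macrophage markers called lower (2 with a minimum of 10 scaled fragments, 2 with quantile normalization, and 3 to 7 with a library left out, against 6); the cause was not tested. With 1 MP library left out, 4 to 7 neighbouring pairs in the order of MP levels did not overlap, 7 without MP library 1 or 3. Scaling to the same total moved the median of all genes from −0.10 to −0.23 and the lower calls from 52.9% to 60.8% of all calls, while quantile normalization gave 47.9% (3277 lower, 3567 higher) and the median ratio 49.0% (3268 lower, 3397 higher).

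A replicate block on the numbers of the libraries gave 3589 genes called lower and 3164 higher, and 6673 of the 6725 genes called without it were shared. The libraries share only a number: correlations of their deviations from the group means were −0.133 to 0.261 (mean 0.128), with 2 of 3 pairs over 0.1, and not every library correlated best with its own number. Depth limits Steap4, Steap1 and the MP level of Steap2.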
